A study of Rattus norvegicus with 14 samples.

Results

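Cdh17, Cela1, Nupr1 and Mx2 were 4 liver genes with high signals in Kyoto rats fed orotic acid, of 2670 genes that had a probe set with a single symbol. They were chosen from the measured values, as large rises in fed Kyoto rats against fed Wistar rats at days 3 and 14. The platform annotation gave their symbols to 5 of the 4502 probe sets in the table: 2 for Cdh17 and 1 each for Cela1, Nupr1 and Mx2. Because that contrast chose the genes, its values are given below as a description, with no test on these genes. The tests given are those of change between days within a strain and of the change of the strain difference between days. Kyoto day 1 against Wistar control was also tested, and only it compared arrays that were all outside the choice. The day 3 and day 14 arrays were chosen on as high in Kyoto and low in Wistar. Tests of these arrays against Kyoto day 1 or Wistar control are therefore not free of the choice.

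The arrays measured RNA from the left lateral liver lobe of rats supplied by Charles River UK, each biotin-labelled sample on 1 single-colour Affymetrix array. There were 14 arrays in 6 groups. The Wistar groups were 3 controls, 2 samples from rats given chow with 1% orotic acid for 3 days, and 3 samples after 14 days of that diet. The Kyoto groups were 2 samples each after 1, 3 and 14 days of the same diet, the strain being named only as Kyoto in the labels. No ages or sexes were given. Untreated Kyoto rats and Wistar rats after 1 day of feeding were not analysed here, so strain and feeding cannot be told apart between Kyoto day 1 and Wistar control. Nothing in the labels says in so many words that each array was a separate animal, so the p-values measure the spread between these samples. In whole liver, fewer cells of a type and less RNA per cell cannot be told apart.

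Orotic acid is an intermediate of pyrimidine synthesis that, in excess in the diet, impairs the export of very low density lipoprotein from rat liver and so leads to lipid droplets in hepatocytes. Cdh17, liver-intestine cadherin, is a calcium-dependent cell adhesion protein first described in rat liver and intestine. Cela1 encodes a chymotrypsin-like elastase named for the pancreas, Nupr1 a small stress-induced nuclear protein acting downstream of Atf4 in the integrated stress response, and Mx2 a dynamin-like GTPase whose transcription is driven by type I interferon.

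Promoter sequences from RefSeq matched 2 of the 4 genes, Nupr1 and Cela1. They are shown as a description of these 2 genes, and no link between sequence and signal was tested. The windows are the 250 bases before the annotated start, 5′ to 3′ on the gene's own strand, with matches to the motifs searched in capitals.
Nupr1 (GRCr8, minus strand, chr1:190645902-190646151): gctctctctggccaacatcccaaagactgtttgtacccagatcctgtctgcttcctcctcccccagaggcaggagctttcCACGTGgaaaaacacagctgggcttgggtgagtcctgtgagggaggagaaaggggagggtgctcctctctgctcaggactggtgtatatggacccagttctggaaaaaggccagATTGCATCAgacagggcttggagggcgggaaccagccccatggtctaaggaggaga
Cela1 (GRCr8, minus strand, chr7:133665062-133665311): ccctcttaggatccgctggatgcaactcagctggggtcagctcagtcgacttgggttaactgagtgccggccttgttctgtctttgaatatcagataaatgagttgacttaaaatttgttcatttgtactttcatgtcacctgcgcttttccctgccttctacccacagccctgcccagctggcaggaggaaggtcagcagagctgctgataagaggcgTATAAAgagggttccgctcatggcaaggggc
Both strands were searched for 3 motifs, none of which contains another. TGATGCAAT is a composite site of C/EBP and ATF factors. CACGTG is the E-box. TATAAA is the box bound by the general transcription machinery. The capitals in Nupr1 are CACGTG, starting at position -170 from the start, and ATTGCATCA, the reverse complement of TGATGCAAT, at -56. The single match in Cela1 is TATAAA at -31. Among 33469 RefSeq windows of the same length, TGATGCAAT was found in 54 (0.161%). CACGTG was found in 5.59% and TATAAA in 12.9%. A match is a description of the sequence and was not tested for binding.

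The array labelled Wistar control 2 stood apart from its label and touches every comparison with the controls. Over the 2466 probe sets tested, its nearest array was Kyoto day 3 replicate 2 (r = 0.959 across probe sets, which are not independent). Such nearest-array values ran from 0.921, for Kyoto day 1 replicate 1, to 0.976 for the Kyoto day 14 arrays. Kyoto day 1 replicate 1 was thus the array least like any other. On a scale where the fed Wistar mean is 0 and the fed Kyoto mean is 1, its median position over 76 other probe sets that differed between the fed strains was 0.953, against 0.101 for control 1 and 0.0861 for control 3. These 76 are not the same set as the 71 probe sets called between the fed strains in the fit of all 14 arrays. Results that use the controls are therefore given with and without it. Hepatocyte markers were present: 10 of 11 were measured and none was at the floor on any array. Their summed signal ran from 134100 to 179100 on Kyoto arrays and from 114800 to 269300 on Wistar arrays. On control 2 this sum was 258900, above every Kyoto array and within the Wistar range. Median deposited signals of the arrays, over the rows with a value on all arrays, were between 269.5 and 285.7.

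Cdh17 separated the strains on both of its probe sets. For the probe set L46874_s_at, the deposited signals, linear MAS5 intensities, were 184 and 288 at Kyoto day 1, 276 and 322 at day 3, and 408 and 500.1 at day 14. On the fed Wistar arrays they were 6.09 and 25.6 at day 3 and 20.5, 3.31 and 6.52 at day 14. Wistar controls 1 and 3 read 7.02 and 1.59, and control 2 read 280.3, inside the Kyoto range. Every Wistar array but control 2 was below the floor of 115 (6.85 on the log2 scale) that was set for the tests, at the 25th percentile of all scaled signals, so the order among those arrays carries no information.

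The second Cdh17 probe set, X78997_at, gave the same separation. Its signals were 320.3 and 436 at Kyoto day 1, 251 and 179 at day 3, and 330.0 and 357 at day 14. Fed Wistar arrays lay between 4.99 and 26.9, and Wistar controls 1 and 3 at 31.4 and 13.7, all below the floor. Control 2, at 210.2, again lay among the Kyoto arrays. X78997_at did not pass the filter on low signals, which kept the upper 60% of probe sets by mean and was at the floor on 7 of 14 arrays. L46874_s_at owed its place in the tests to arrays with high signal: it was at the floor on the same number of arrays, so it had to differ between arrays to pass. Groups at the floor have no spread, which narrows its standard errors, and its tests carry both limits. In all, 4 of the 5 probe sets were tested. The probes of an _s_at set can match more than 1 transcript, and whether probes bind equally in both strains was not tested.

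Cela1 (L00117_at) was above the floor on every array and had the narrowest range of the 5 probe sets among the Kyoto arrays. Its signals were 854 and 652 at Kyoto day 1, 1026 and 699 at day 3, and 705 and 603 at day 14. They were 275 and 179 at Wistar day 3 and 276, 263 and 245 at Wistar day 14. Controls 1 and 3 read 249 and 329, while control 2 read 775, a Kyoto level. Leaving control 2 aside, the lowest Kyoto array was above the highest Wistar array, and the highest signal was 1.7 times the lowest among Kyoto arrays and 1.84 times among Wistar arrays.

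Nupr1 (AF014503_at) had the widest range of the 5 probe sets among the Kyoto arrays. Its signals were 590.1 and 830 at Kyoto day 1, 2124 and 998 at day 3, and 1211 and 882 at day 14. They were 283 and 677 at Wistar day 3 and 728, 408 and 226 at Wistar day 14. The 3 controls read 278, 399 and 169, so control 2 did not stand out here. Fed Kyoto arrays were all above fed Wistar arrays, but the lower Kyoto day 1 array was below Wistar day 3 replicate 2 and Wistar day 14 replicate 1. The highest signal was 3.6 times the lowest among the 6 Kyoto arrays and 4.3 times among the 7 Wistar arrays other than control 2.

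Mx2 (X52713_at) was lowest in the Wistar groups and highest at Kyoto day 14. Its signals were 338 and 437 at Kyoto day 1, 333 and 377 at day 3, and 538 and 587 at day 14. They were 119 and 173 at Wistar day 3 and 277, 109 and 167 at Wistar day 14. Controls 1 and 3 read 228 and 102, and control 2 read 478, above all Kyoto day 1 and day 3 arrays. Without control 2 the strains did not overlap, and 2 of the 5 fed Wistar arrays and control 3 were at the floor after scaling. A log2 mean at its fed Wistar level, 7.31, would not have passed the filter on low signals. Its arrays with high signal thus kept Mx2 in the tests, which carry that limit.

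**Figure D1:**
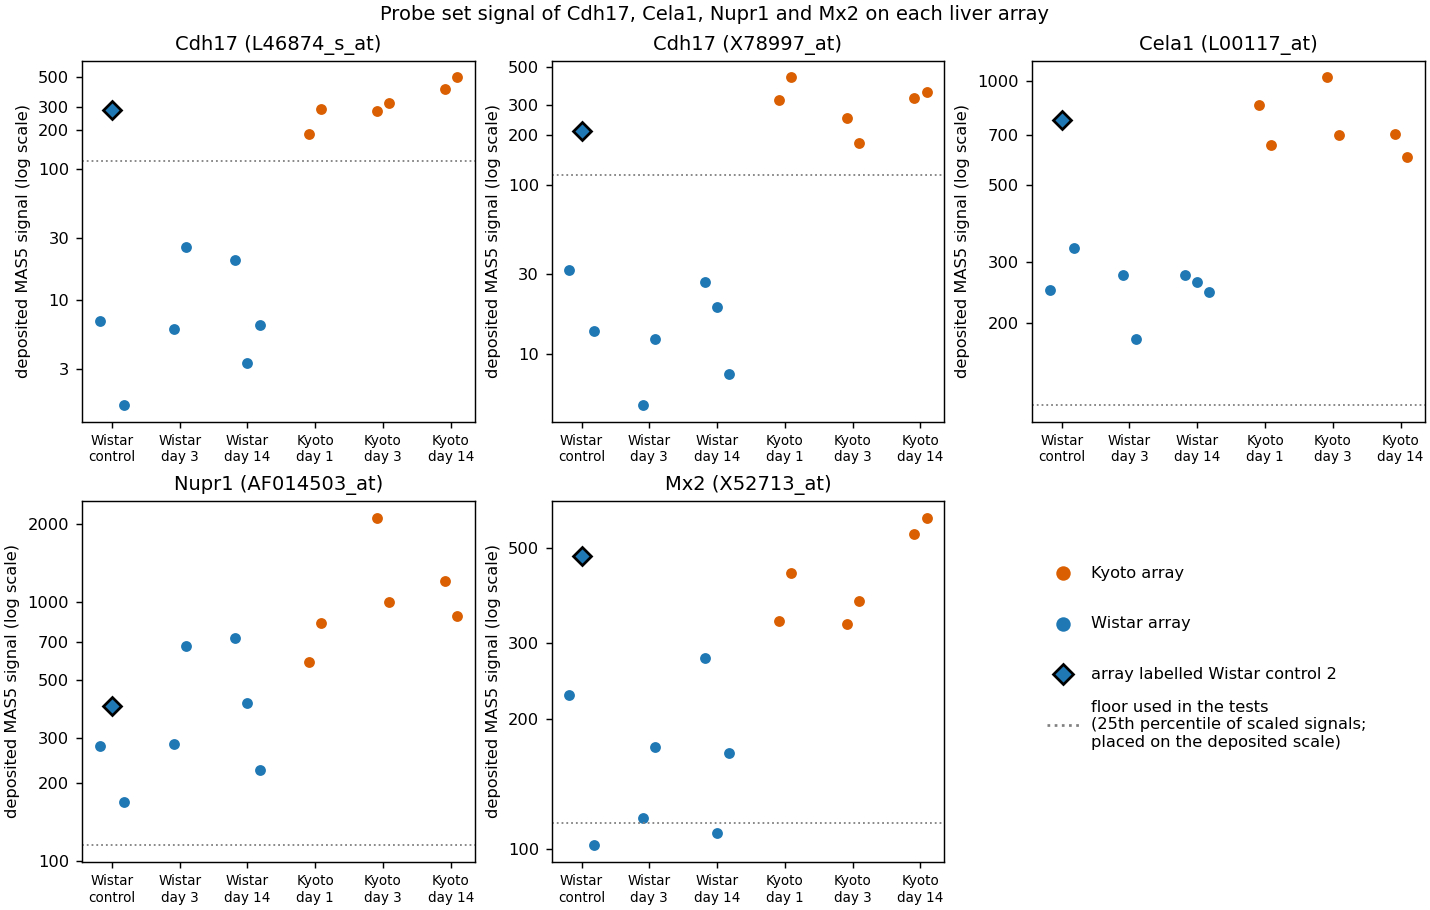
Deposited MAS5 signal (log axis) of the 5 probe sets on each of the 14 arrays, by group, 1 point an array; the dotted line is the floor of 115. The diamond, the array labelled Wistar control 2, lies with the Kyoto arrays for Cdh17, Cela1 and Mx2 and with the Wistar arrays for Nupr1.

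With 1 probe set a gene, the 4 genes ranked from the second to the fifth largest rise in fed Kyoto against fed Wistar among 21 ranked rises. These values chose the genes and are given with no test; here and below ± gives the standard error of a log2 difference unless it is called SD. In the mean of both days, Cdh17 was at least 3.16-fold higher in Kyoto (1.66 ± 0.27), a bound because all 5 fed Wistar arrays were at the floor. Cela1 was 3.12-fold higher (1.64 ± 0.29), Nupr1 2.90-fold (1.54 ± 0.38) and Mx2 2.87-fold (1.52 ± 0.36), with 2 of the 5 fed Wistar arrays of Mx2 at the floor. Above them stood Akr1c13, an aldo-keto reductase, at 5.98-fold. Just outside were Hspb1, a small heat shock protein, at 2.79-fold (1.48 log2), and Cyba, a subunit of the phagocyte NADPH oxidase, at 2.75-fold. Of the 2466 probe sets, 111 (4.5%) had all fed Kyoto arrays above all fed Wistar arrays, as all 4 genes did. Over all 14 arrays 14 probe sets (0.568%) had every Kyoto array above every Wistar array, and none of the 5 did; without control 2 there were 42 (1.7%), among them Cdh17 (L46874_s_at), Cela1 and Mx2.

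Whether the strain difference was constant between day 3 and day 14 was tested as the difference of the differences. For Cdh17 (L46874_s_at) the fed strain difference was 1.36 on the log2 scale at day 3 and 1.96 at day 14. The difference between the days was 0.61 ± 0.54 (95% interval -0.55 to 1.76, limma adjusted p = 0.919). Wistar arrays were at the floor on both days, so this value was that of the Kyoto arrays alone. The untested probe set X78997_at had differences of 0.87 and 1.57, the same direction.

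For Cela1 the strain difference was 1.96 at day 3 and 1.33 at day 14, a difference of -0.62 ± 0.59 (95% interval -1.89 to 0.64, limma adjusted p = 0.919). With each array left out in turn it ran from -0.95 to -0.30, without Wistar day 3 replicates 1 and 2 respectively. Nupr1 had 1.67 and 1.40, a difference of -0.28 ± 0.75 (interval -1.90 to 1.35, limma adjusted p = 0.971). Its sign turned when any of 3 single arrays was left out, and the value ran from -0.97 without Wistar day 3 replicate 2 to 0.41 without Wistar day 3 replicate 1. On the 11 arrays labelled lot batch 1 it was -1.37, with replicate 1 as the only Wistar day 3 array. Mx2 had 1.34 and 1.70, a difference of 0.35 ± 0.72 (interval -1.21 to 1.91, limma adjusted p = 0.965), which ran from 0.0567 without Wistar day 14 replicate 2 to 0.69 without Wistar day 14 replicate 1. None of the 4 tested probe sets passed, beside 0 of 2466 (0%) over all, where 141 had an unadjusted p under 0.05 and the smallest adjusted p was 0.519. The intervals allow a rise or a fall of the strain difference between the days for each gene, so they do not show that it was constant.

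**Figure D2:**
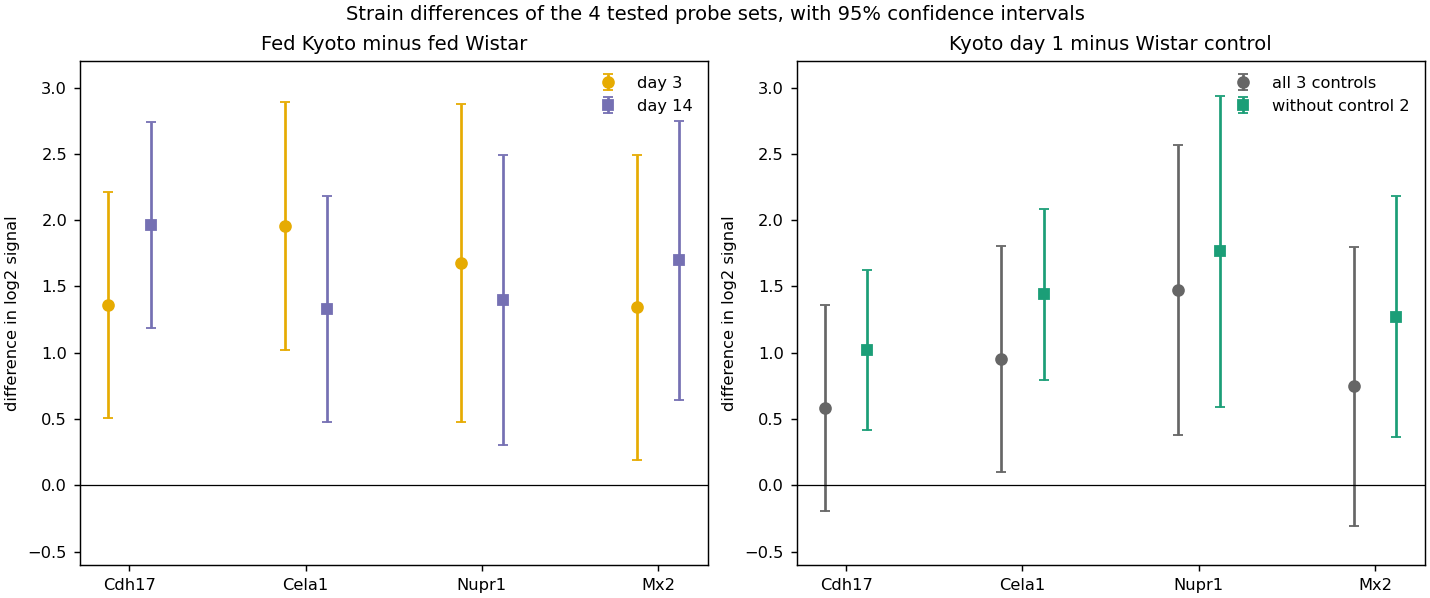
Log2 differences between strains for the 4 tested probe sets with 95% confidence intervals: on the left fed Kyoto minus fed Wistar at day 3 and day 14, on the right Kyoto day 1 minus Wistar control with all 3 controls and without control 2. The day 3 and day 14 intervals of each gene overlap, and all 4 right-hand estimates rise when control 2 is left out.

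Within the Kyoto strain none of the 4 genes passed the test over days, and whether their courses differed from each other was not tested. Cdh17 (L46874_s_at) was highest at day 14, 0.94 ± 0.40 above day 1 (95% interval 0.09 to 1.80). Its unadjusted p was 0.0326 and its limma adjusted p 0.465, and over all probe sets 4 (0.162%) passed that contrast. The other Cdh17 probe set, X78997_at, was lowest at day 3, 0.85 below day 1, and its day 14 arrays were level with day 1 (-0.15). The correlation of the 2 Cdh17 probe sets was 0.86 over the 14 arrays and 0.09 over the 6 Kyoto arrays.

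Cela1 was 0.10 ± 0.43 higher at Kyoto day 3 and -0.25 ± 0.43 at day 14 relative to day 1. Nupr1 was 0.95 ± 0.56 higher at day 3 and 0.50 ± 0.56 at day 14. Mx2 was -0.15 ± 0.54 at day 3 and 0.53 ± 0.54 at day 14. The adjusted p of limma's F test over the 3 Kyoto days was 0.711 for Cdh17, 0.946 for Cela1, 0.813 for Nupr1 and 0.862 for Mx2. Over all probe sets 2 (0.0811%) passed that test.

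In the Wistar strain, orotic acid feeding did not move any of the 4 genes past the threshold, with or without control 2. Nupr1 was 0.75 ± 0.51 higher at day 3 than in the controls and 0.58 ± 0.45 higher at day 14. Without control 2 these were 1.04 ± 0.54 (limma adjusted p = 0.749) and 0.87 ± 0.49. Cela1 was -0.90 ± 0.40 at day 3 (limma adjusted p = 0.460, beside 0.0406% of probe sets called), and -0.41 ± 0.30 without control 2. Mx2 was -0.75 ± 0.49 at day 3 and -0.42 ± 0.44 at day 14, and 0.11 ± 0.38 at day 14 without control 2. For Cdh17 control 2 was the single Wistar array above the floor, so no change within Wistar could be measured without it. The F test over the 3 Wistar groups passed for 0 of 2466 probe sets (0%), with 170 at an unadjusted p under 0.05, and its adjusted p was 0.917 for Cdh17, 0.783 for Cela1, 0.906 for Nupr1 and 0.915 for Mx2.

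Kyoto day 1 against Wistar control asks whether the higher signals were there on arrays that did not choose the genes, with the limit that 1 day of feeding moves with the strain. With all 3 controls none of the 4 tested probe sets passed, beside 17 of 2466 (0.689%) over all. Nupr1 was 1.47 ± 0.51 higher on the log2 scale (limma adjusted p = 0.185), with no overlap, as were 385 probe sets (15.6%). Cela1 was 0.95 ± 0.40 higher (adjusted p = 0.253), Mx2 0.75 ± 0.49 (0.469) and Cdh17 0.58 ± 0.36 (0.443), each overlapping the controls only through control 2.

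Without control 2 all 4 genes separated the 2 groups of 2 arrays, as did 523 probe sets (21.2%). Cela1 rose past the threshold, 2.71-fold higher at Kyoto day 1 (1.44 ± 0.30, 95% interval 0.79 to 2.09, limma adjusted p = 0.0270), among 43 probe sets called (1.74%). When the filter was dropped as well, its adjusted p was 0.0693 and the call ended. Nupr1 was 3.40-fold higher (1.76 ± 0.54, adjusted p = 0.124), Mx2 2.41-fold (1.27 ± 0.42, adjusted p = 0.156, with control 3 at the floor) and Cdh17 (L46874_s_at) at least 2.03-fold (1.02), none of them past the threshold. The untested Cdh17 probe set X78997_at entered only when the filter was dropped. It was then 1.43 ± 0.27 higher with all controls (adjusted p = 0.0820, beside 0.146% of 4110 probe sets called). Without control 2 it was at least 3.30-fold higher (1.72 ± 0.18, adjusted p = 0.00641, beside 0.803% called), an alternative added after the data were seen; both controls were then at the floor and had no spread of their own.

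Placed between the fed Wistar mean (0) and the fed Kyoto mean (1), the 5 arrays outside the choice lay as follows. On control 2, Cela1 lay at 1.057, Mx2 at 1.076 and Cdh17 at 0.792 and 0.717 on its probe sets. Nupr1 lay at -0.049, at the level of fed Wistar and above the other controls, although the median of the other strain-differing probe sets on that array was 0.953. On the log2 scale the Nupr1 value of control 2 was 8.64, against fed Kyoto 10.25 ± 0.47 (SD, n = 4), fed Wistar 8.70 ± 0.75 (SD, n = 5) and a mean of 7.76 for controls 1 and 3. Control 1 and control 3 put Cdh17 at 0, Cela1 at 0.041 and 0.289, Mx2 at 0.359 and -0.284, and Nupr1 below 0, at -0.399 and -0.847. At Kyoto day 1, Cela1 was at 1.166 and 0.921, Mx2 at 0.742 and 1.007, Nupr1 at 0.344 and 0.712, and Cdh17 at 0.427 and 0.802 on L46874_s_at and at 1.218 and 1.603 on X78997_at. Of the 4 genes, Nupr1 was the 1 at a Wistar level on control 2, which is a single array; what it holds was not tested.

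**Figure D3:**
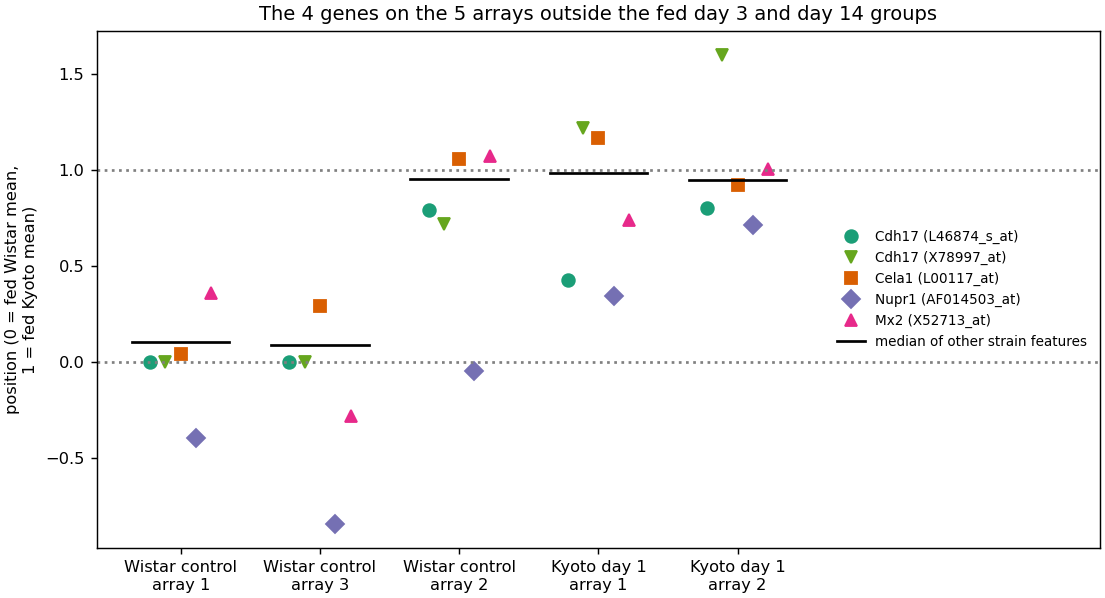
Position of each probe set between the fed Wistar mean (0) and the fed Kyoto mean (1) on the 3 Wistar control and 2 Kyoto day 1 arrays; black bars are the median of 76 other probe sets that differed between the fed strains. On control 2, Cdh17, Cela1 and Mx2 sit between 0.717 and 1.076 and Nupr1 at -0.049.

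Lot batch, as the labels call it, was 1 for 11 arrays and was not given for 3, all of them Wistar. Wistar day 3 replicate 2 was among the 3, so on lot batch 1 arrays the Wistar day 3 group was replicate 1 alone. On the lot batch 1 arrays alone, the fed strain difference was 1.67 for Cdh17 (L46874_s_at), 1.45 for Cela1, 1.68 for Nupr1 and 1.64 for Mx2. Kyoto day 1 minus Wistar control was there 0.36 ± 0.42 for Cdh17, 0.81 ± 0.46 for Cela1, 1.16 ± 0.40 for Nupr1 and 0.24 ± 0.46 for Mx2, with control 2 as 1 of the 2 controls left, and none passed. The day 14 minus day 3 value of the strain difference was there 0.61 for Cdh17, -0.35 for Cela1, -1.37 for Nupr1 and 0.0501 for Mx2. Each of these rests on the single Wistar day 3 array left. With lot batch as a block over all arrays, these were 0.65, -0.56, -0.21 and 0.43.

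Mx2 has a close relative on the array. Mx1 (X52711_at), a paralogous interferon-induced GTPase whose transcript resembles that of Mx2, read 112 to 219 on Kyoto arrays and 44.9 to 90.0 on the Wistar arrays other than control 2, where it read 292. It was too low to be tested, and whether the 2 probe sets share signal was not tested. The strain pattern was alike in both, with no overlap between strains once control 2 was set aside.

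Among interferon-induced genes other than Mx2, 17 of 55 listed were on the array and 13 were tested. In fed Kyoto against fed Wistar 1 was called higher and 0 lower, beside 71 of 2466 probe sets (2.88%) called in either direction and 28 (1.14%) called higher. Irf7 (rc_AA799861_g_at), the transcription factor that amplifies type I interferon signalling, was 2.55-fold higher (1.35 ± 0.33, limma adjusted p = 0.0422), with both Wistar day 3 arrays at the floor. A log2 mean at its fed Wistar level, 7.15, would not have passed the filter on low signals, so the Irf7 test carries the limit given for Mx2. With no filter its limma adjusted p was 0.154. Its signals were 299 to 536 on the 6 Kyoto arrays and 87.8 to 190.2 on the 5 fed Wistar arrays. On Wistar controls 1, 2 and 3 they were 315, 453 and 104, so control 1 also lay in the Kyoto range. The Irf7 call held in 4 of the 14 fits that left out 1 array, those without either Kyoto day 1 array, Wistar control 2 or Wistar control 3. In the others the adjusted p rose to as much as 0.170. With lot batch as a block it was 0.167, and on lot batch 1 arrays alone 0.0608. The other Irf7 probe set, rc_AA799861_at, was too low to be tested and overlapped between the strains, at 58.2 to 134.5 on Kyoto and 40.6 to 104 on fed Wistar arrays. The list's median difference was 0.47, against 0.03 over all tested probe sets, with 10 of 13 genes above 0. Kyoto day 1 was above Wistar control by a median of 0.22 over the list, against -0.02 over all probe sets. There 7 of 13 genes were above 0, 6 were below, and 0 were called, beside 0.689% over all. Without control 2 the median was 0.23, with 10 of 13 above 0 and 0 called, beside 1.74%. In the change of the strain difference from day 3 to day 14, 12 of the 13 were below 0 (median -0.42) and none was called, whereas the Mx2 estimate was 0.35.

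Among integrated stress response genes other than Nupr1, 20 of 36 listed were on the array and 13 were tested. Phgdh, the first enzyme of serine synthesis and an Atf4 target, rose 2.08-fold in fed Kyoto (1.06 ± 0.22, limma adjusted p = 0.0201) and was the 1 gene called. That call held in 9 of the 14 fits without 1 array and ended without any of the 4 fed Kyoto arrays or Wistar day 3 replicate 1, with an adjusted p of up to 0.109. With lot batch as a block the adjusted p was 0.0534, so the call ended, and on lot batch 1 arrays alone it was 0.0472. The list's median was 0.52, with 9 of 13 above 0. Kyoto day 1 was above Wistar control by a median of 1.15 over the list, against -0.02 over all probe sets, with 10 of 13 above 0. Cth (-1.10) and Gadd45a (-1.09) were among the 3 below 0. In this contrast 0 genes were called lower and 3 were called higher, where 11 of 2466 (0.446%) were higher. These 3, named after their values were seen, were Phgdh (2.77-fold), Slc3a2, a subunit of amino acid transporters (2.82-fold), and Dnajb9, a cochaperone of the endoplasmic reticulum (4.05-fold). Their limma adjusted p-values were 0.0413 to 0.0475. Without control 2 the count was 2, Phgdh and Slc3a2. Their calls ended without Kyoto day 1 replicate 1, any fed Kyoto array, control 1 or control 3. Dnajb9 was called in 3 of the 14 fits, those without a Wistar day 14 array. With lot batch as a block all 3 calls ended, at adjusted p-values of 0.0504 for Phgdh and Slc3a2 and 0.0949 for Dnajb9, as they did on lot batch 1 arrays alone.

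No tested gene of the 2 lists drawn up around Cdh17 and Cela1 passed the threshold between the fed strains. Among the genes tested Cdh2 was the only cadherin, and none was an elastase. The families of Cdh17 and Cela1 themselves were thus barely tested. Of cadherin, catenin and junction genes other than Cdh17, 9 of 22 were on the array, 7 were tested and 0 were called, with a median of -0.07. The smallest p-values were those of Gjb1, the main hepatocyte connexin (-0.26 ± 0.15, limma adjusted p = 0.498), and Cldn3, a claudin (0.37 ± 0.22, adjusted p = 0.503). Of elastases, related serine proteases and their inhibitors other than Cela1, 15 of 35 were on the array, 13 were tested and 0 were called, with a median of 0.03. The smallest p-values were those of Itih3, a hyaluronan-binding serum protein (0.23 ± 0.12, limma adjusted p = 0.422), and Serpina1, the inhibitor of neutrophil elastase (0.13 ± 0.10, adjusted p = 0.625).

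**Figure D4:**
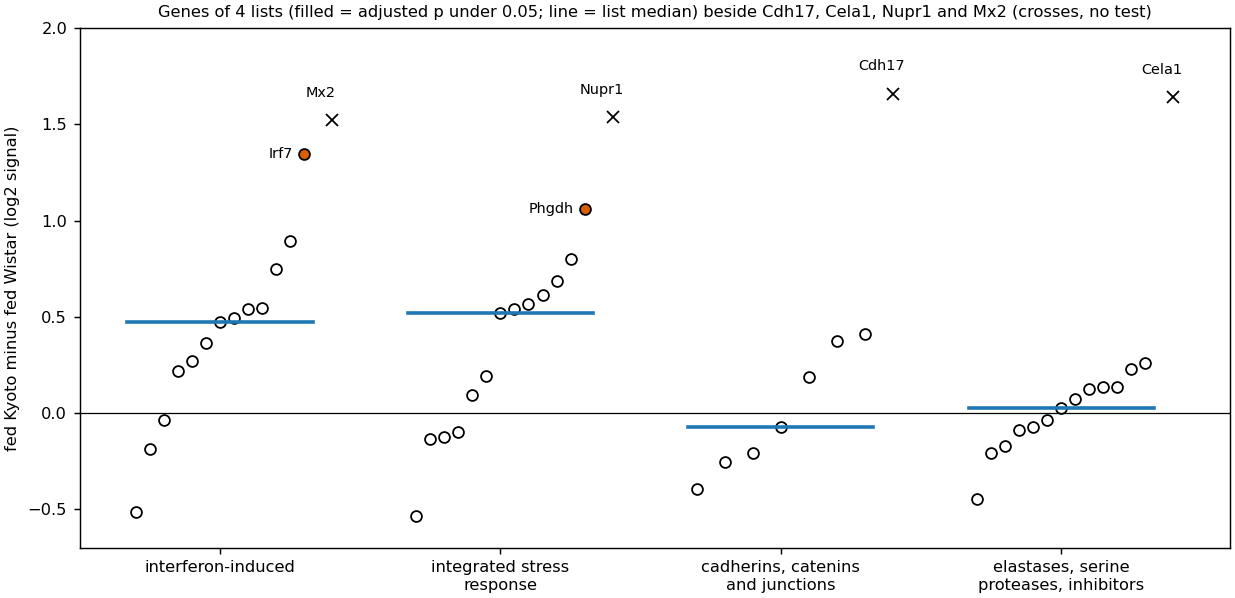
Log2 difference of fed Kyoto minus fed Wistar for the tested genes of 4 lists, 1 point a gene, with the list median as a line and the 4 chosen genes as crosses. Filled points (Irf7 and Phgdh) passed an adjusted p of 0.05, and the medians are 0.47, 0.52, -0.07 and 0.03 from left to right.

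Markers of tissues in which these genes are also known were looked at beside them. Of 19 pancreatic acinar markers other than Cela1, 1 was measured: Amy2a3, a pancreatic amylase, read 131 to 636 on Kyoto arrays and 344 to 756 on Wistar arrays, with overlapping ranges. Of 14 intestinal markers other than Cdh17, 5 were measured, summing to 1856 to 4247 on Kyoto and 1699 to 3021 on Wistar arrays. Lct, the intestinal lactase, was at the floor on all 14 arrays, Muc2, the goblet cell mucin, on 9 and Tff3 on 3. Apoa4 (462.3 to 2414) and Anpep (846.5 to 1501) were above the floor on every array. Of 12 bile duct markers 5 were measured, summing to 719.6 to 974 on Kyoto and 578 to 808 on Wistar arrays. Epcam and Cd24 were at the floor on all arrays and Krt19, a biliary keratin, on 13. Slc4a2 (264 to 543.4) was above the floor on every array. Aqp1, at the floor on 4 arrays, had medians of 203.8 on Kyoto and 108.5 on Wistar arrays. Markers of Kupffer cells and macrophages, 7 of 12 measured, summed to 6690 to 8302 on Kyoto and 5209 to 7377 on Wistar arrays, the last on control 2. The part of other cell types in the strain differences of the 4 genes was not tested.

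The probe sets most like each gene over the 14 arrays, by Pearson correlation of log2 signals, differed between the genes. These correlations are descriptions: the arrays share strains and groups, and control 2 is among them. Cdh17 (L46874_s_at) was closest to Akr1c13 (0.98, and 0.95 within the 6 Kyoto arrays), then to Abcc2, a canalicular exporter of conjugates (0.93, and 0.56 within Kyoto), and Mx2 (0.89, and 0.87). Its probe set X78997_at was closest to the probe sets of Lrrc59, a ribosome-binding membrane protein (0.91 and 0.89, and 0.83 and 0.27 within Kyoto), and to Kdr, a receptor for vascular endothelial growth factor (0.86, and 0.59).

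Cela1 was closest to Hspb1 (0.94), Acox2, a peroxisomal oxidase of bile acid intermediates (0.93), and C1qb, a complement subunit made by macrophages (0.93). Within the 6 Kyoto arrays these were 0.34, 0.14 and 0.70. Nupr1 was closest to Ero1b, an oxidase of the endoplasmic reticulum (0.95), Hspa5, its main Hsp70 chaperone (0.88), and Slc35b1, an ATP carrier of its membrane (0.88), and within Kyoto these were 0.71, 0.59 and 0.53. Mx2 was closest to Pex6, a peroxisome assembly factor (0.90), Cdh17 (0.89) and Hspb1 (0.89), with 0.39, 0.87 and 0.0274 within Kyoto. All of these correlations were lower within the Kyoto strain than over the 14 arrays. Among the 4 genes, within the 6 Kyoto arrays, the highest correlation was that of Cdh17 (L46874_s_at) and Mx2, at 0.87. With the other Cdh17 probe set, X78997_at, Mx2 stood at 0.50. The lowest was that of Cela1 and Mx2, at -0.89, where over 14 arrays this pair stood at 0.78. Nupr1 had the lowest correlations with the others over 14 arrays, between 0.61 and 0.70.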

How the data were processed

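The deposited values were linear intensity signals, 1 for each probe set, which the authors computed with MAS5 (per the submitters' processing notes). Its version and scaling target were not given in the sources used here. Of 4502 rows, 24 were control probe sets and 375, among them 7 of the controls, lacked a value on at least 1 of 3 arrays; these were left out, which left 4110. Log2 signals were quantile normalized, set to a floor at their 25th percentile (6.85) and filtered to the upper 60% by mean, 2466 probe sets. All 14 arrays entered 1 limma 3.58.1 fit (R 4.3.3; lmFit, then eBayes with a trend on intensity) with a mean for each of 6 groups and 8 residual degrees of freedom, Benjamini-Hochberg adjusted over all tested probe sets at 0.05. A fold is 2 raised to the log2 difference, and "at least" marks a lower group with all its arrays at the floor. The number of arrays limits the precision.

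Symbols came from the platform annotation, where 3700 probe sets had 1 symbol, 229 several and 573 none. The 4 genes and all gene lists were chosen with earlier results of these data known. Named are all probe sets of the 4 genes, genes just inside and outside the choice, up to 4 called genes a list or else the 2 with the smallest p, and the 3 closest probe sets of other genes by correlation. Alternatives were other scalings, floors, filters and variance settings, lot batch, fewer groups or arrays, 1 probe set a gene, and leaving out each array in turn. Blocking the 3 arrays that had blank rows, and dropping the filter together with control 2, were chosen after seeing the data.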

Additional observations from a re-analysis of the deposited data

How the results depend on the processing

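No paired analysis was possible because the labels give no replicate numbers that groups share. Over 29 alternative settings, no probe set of the 4 genes was called for the change of the strain difference, the Kyoto days or the Wistar times. Kyoto day 1 against Wistar control had 0 called in 27 settings and 1 each in the other two: Cela1 without Wistar control 2 (leaving out 1 array otherwise gave 0), and Cdh17 X78997_at with no filter and without control 2. With no filter, 2 probe sets were called in fed Kyoto against fed Wistar in place of 71. The list genes depended on the setting more: over 28 settings Irf7 was called in 12 and Phgdh in 21 for the fed strains, a check added after the data were seen. The floor sets the size of the Cdh17 difference: with no floor it was 5.01 (L46874_s_at) and 4.33 (X78997_at) on the log2 scale, and with a floor at the 40th percentile 0.93 and 0.51.

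Directions turned only where nothing had passed the threshold. With lot batch 1 arrays alone, which left a single Wistar day 3 array, Nupr1 in Wistar was -0.25 at day 3 against control and 0.92 at day 14 against day 3. The latter was 0.0145 with array weights and 0.14 with a block for arrays with blank rows, and Mx2 at Wistar day 14 against control was 0.058 with array weights and 0.11 with no filter and no control 2. With each array left out in turn, Cela1 at Kyoto day 3 against day 1 ran from -0.10 to 0.31 and Mx2 from -0.35 to 0.0492. The Nupr1 change of the strain difference ran from -0.97 to 0.41. In Wistar, day 14 against day 3 ran from -0.0549 to 0.60 for Cela1, -0.86 to 0.51 for Nupr1 and -0.0028 to 0.63 for Mx2, and day 14 against control from -0.92 to 0.11 for Mx2. The causes were not tested.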
